A study of Mus musculus with 8 samples.

Results

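The genes described here encode enzymes that break down the branched-chain amino acids leucine, isoleucine and valine. They are 10 genes (Bcat1, Bcat2, Bckdha, Bckdhb, Dbt, Ivd, Mccc1, Mccc2, Acadsb and Hibch) of the 52338 and 52139 genes listed in 2 expression tables, and each symbol matched 1 row in both. The members were chosen by gene symbol, with their levels and their treated minus DMSO differences in these 8 libraries already known. Those levels and differences are therefore given as a description. A fit over all genes gives the intervals of the differences and the count past its threshold, and no p-value is given for a single member.

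The RNA came from cells labelled C2C12, wild type, a mouse line of immortal muscle precursors able to form myotubes. One table holds a pair, 1 library of cells given DMSO, the solvent control, and 1 of cells given GBC, a ginseng berries concentrate. The other holds 3 DMSO libraries and 3 libraries of cells given ginsenoside Re, a ginseng saponin, all with myoblast in their titles. Doses, times and whether replicates were separate cultures are not given in the labels, so the spread between libraries may be technical.

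All 3 amino acids are first stripped of their amino group by an aminotransferase, which hands it on to form glutamate. The resulting keto acids are then committed to breakdown by a mitochondrial dehydrogenase complex that is switched off by a kinase and on by a phosphatase. From there each amino acid has its own branch of mitochondrial enzymes, ending in acetyl-CoA, acetoacetate or succinyl-CoA, and skeletal muscle is known as a major site of the first step.

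The labelled cell type was checked against 7 myoblast markers. Among the 6 libraries with Re and their controls, all but Pax7 averaged at least 1 TPM (TPM, transcript abundance scaled to gene length and to the library's sum). The summed level of the list ran from 201.6 to 221.9 TPM in the DMSO and from 202.7 to 215.7 TPM in the Re libraries. In the pair the sum was 1.98 TPM in the DMSO and 1.67 TPM in the GBC library, and Myod1, Myf5, Cdh15 and Pax7 were listed at 0 in both. The 5 mesenchymal markers, such as Col1a2, summed to 154.5 TPM in the DMSO and 310.7 TPM in the GBC library, and to between 220.7 and 286.8 TPM in the Re table. Col1a2 made up most of each sum. Thy1, a surface protein of the same list, was at 23.75 and 22.11 TPM in the pair and at 0.08 TPM or less in the Re table. Pdgfrb, also of that list, went the other way, at 1.78 and 3.26 TPM in the pair and 13.4 to 16.2 TPM in the Re table. Adipocyte and immune markers summed to at most 14.1 and 2.69 TPM in any library, and the 7 markers of differentiating myotubes to 0.20 and 0.23 TPM in the pair and 24.6 to 35.3 TPM in the Re table, nearly all from Acta1. The pair is therefore called by its labels only, and the part of these markers in the results below was not tested.

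In 2 members the tables differed in kind. Mccc2, the beta subunit of the carboxylase of leucine breakdown, was listed at 0 in both libraries of the pair and at 6.26 to 9.10 TPM in the 6 libraries of the Re table. Bckdhb, the beta subunit of the decarboxylase of the dehydrogenase complex, went the other way, at 3.26 and 6.20 TPM in the pair and at 0 to 0.33 TPM in the Re table. Acadsb, the isoleucine enzyme, had the largest difference between Re and DMSO among the members. The bases before the RefSeq transcription start of these 3 genes are shown because the results turn on them, 250 bases each, 5′ to 3′ on the gene's strand, with CG dinucleotides in capitals (RefSeq, GRCm38.p6, not the build of the authors' notes). They lie at chr7:131410351-131410600 on the plus strand for Acadsb, chr13:100015640-100015889 on the minus strand for Mccc2 and chr9:83924887-83925136 on the plus strand for Bckdhb, the first of 2 starts listed for that gene.
Acadsb: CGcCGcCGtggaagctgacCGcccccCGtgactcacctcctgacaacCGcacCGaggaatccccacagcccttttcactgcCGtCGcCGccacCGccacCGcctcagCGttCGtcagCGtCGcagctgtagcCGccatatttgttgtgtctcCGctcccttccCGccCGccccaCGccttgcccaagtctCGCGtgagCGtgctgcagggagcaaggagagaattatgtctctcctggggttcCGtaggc
Mccc2: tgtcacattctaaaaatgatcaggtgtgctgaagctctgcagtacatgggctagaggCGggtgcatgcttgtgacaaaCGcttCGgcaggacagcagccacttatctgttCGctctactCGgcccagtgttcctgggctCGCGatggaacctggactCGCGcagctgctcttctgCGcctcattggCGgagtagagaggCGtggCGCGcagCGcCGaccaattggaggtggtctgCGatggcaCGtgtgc
Bckdhb: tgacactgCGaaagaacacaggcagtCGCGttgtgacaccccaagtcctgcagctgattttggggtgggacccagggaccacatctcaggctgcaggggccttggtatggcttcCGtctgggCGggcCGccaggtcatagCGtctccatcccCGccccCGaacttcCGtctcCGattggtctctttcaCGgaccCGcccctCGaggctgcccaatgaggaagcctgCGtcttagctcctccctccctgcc

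The table of promoters held 12 starts of 9 members, with no entry for Dbt. The window before the Acadsb start held 25 CG dinucleotides, that of Mccc2 18 and that of Bckdhb 15. Across 32851 promoters the median was 6 CG dinucleotides, and at least as many as in these windows were found in 10.7%, 21.7% and 27.3% of them. Among all 12 windows of members the count ran from 1, at the other Bckdhb start, to the 25 of Acadsb. These counts describe the windows and say nothing of what binds there.

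Among the members, transcript levels spanned a wide range in the Re table. Bcat1 was by far the highest, at 75.6 ± 6.13 TPM (SD over the 6 libraries), and its lowest library, at 68.2 TPM, lay above the highest of every other member. Acadsb followed at 20.3 ± 5.31 TPM, then Ivd at 13.5 ± 2.22, Hibch at 11.8 ± 1.39, Bcat2 at 10.4 ± 1.86, Mccc2 at 7.95 ± 1.12, Bckdha at 7.77 ± 1.01 and Mccc1 at 5.40 ± 0.748 TPM. From Acadsb down to Mccc1, the ranges of neighbours in this order, taken over all 6 libraries and both groups, overlapped. Such ranges leave out that both genes were read in the same libraries, where Acadsb was 1.06 to 2.13 times Ivd. Farther apart in the order some ranges did not overlap. The lowest Acadsb library, at 15.05 TPM, lay above the highest of Hibch, Bcat2, Mccc2, Bckdha and Mccc1. The lowest of Ivd, at 11.15 TPM, lay above those of Mccc2, Bckdha and Mccc1. Dbt, at 2.96 ± 0.505 TPM, lay apart from Mccc1 above it, and Bckdhb, at 0.123 ± 0.157 TPM, lay apart from Dbt. In the pair Bcat1 was highest too, at a mean of 35.7 TPM over its 2 libraries, and Ivd, Bckdha, Hibch, Acadsb and Bckdhb followed at means of 8.91, 6.11, 5.66, 4.86 and 4.73 TPM. The 2 tables were taken as normalised separately, so levels set side by side across them are descriptions.

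**Figure D1:**
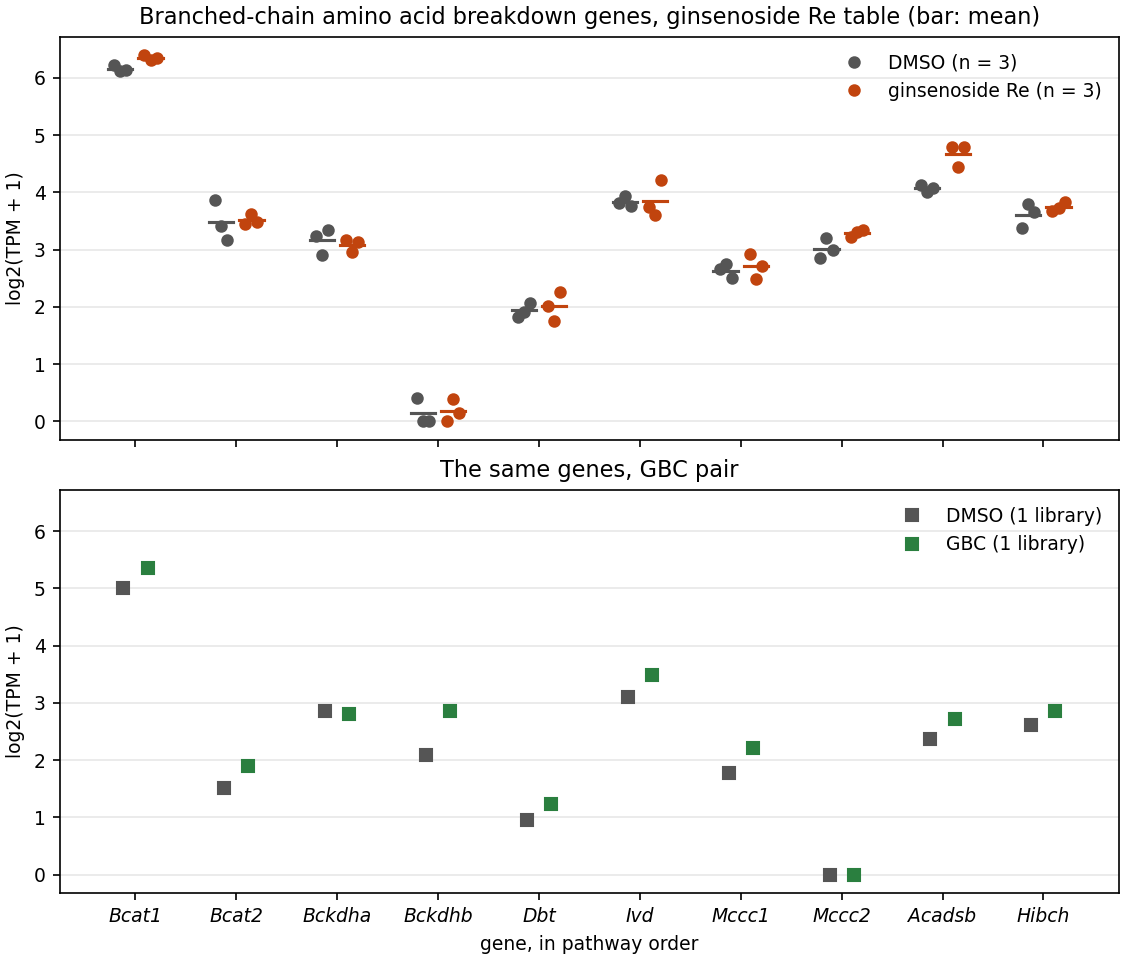
Level of each member gene as log2(TPM + 1) in every library, with the Re table above (circles, bars are means of 3 libraries) and the GBC pair below (squares, 1 library each). Bcat1 is the highest gene in both panels, Bckdhb lies near 0 only in the upper panel and Mccc2 is at 0 only in the lower one.

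Transcripts of the 2 aminotransferases differed in level. Bcat1 encodes the cytosolic enzyme and stood at 73.5, 68.2 and 69.6 TPM in the DMSO libraries and at 83.3, 78.8 and 80.4 TPM in the Re libraries. Even the lowest Re library exceeded the highest DMSO library as deposited, with a difference of 0.20 on the log2(TPM + 1) scale (95% confidence interval 0.01 to 0.38, n = 3 and 3). Of the 11967 genes tested, those averaging 1 TPM or more, 77.5% were higher in Re, with a median difference of 0.105. After rescaling by the median of ratios, which moves that median to 0.00, the difference of Bcat1 was 0.08 (interval -0.07 to 0.24) and the groups overlapped, at 71.3 to 76.5 TPM for DMSO and 74.3 to 82.0 TPM for Re. In bulk RNA such a level cannot tell the number of cells of a type from the RNA per cell. Bcat2, the mitochondrial enzyme, was at 13.5, 9.69 and 7.97 TPM in DMSO and at 9.94, 11.4 and 10.2 TPM in Re. The Re values lay within the range of the DMSO values, and the difference was 0.04 as deposited and -0.06 after rescaling. Within a library, where scaling plays no part, Bcat1 was 7.07 ± 1.65 times the level of Bcat2 in DMSO and 7.74 ± 0.741 times in Re (SD, n = 3). In the pair the ratio was 16.9 in the DMSO and 14.7 in the GBC library.

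Subunits of the dehydrogenase complex showed small differences in both directions. Bckdha, the alpha subunit of the decarboxylase, stood at 8.47, 6.52 and 9.18 TPM in DMSO and at 7.95, 6.78 and 7.72 TPM in Re. Its values overlapped, and it was the one tested member lower in Re as deposited, by a difference of -0.09, or -0.19 after rescaling (interval -0.47 to 0.09). Bckdhb was listed at 0.33, 0 and 0 TPM in DMSO and at 0, 0.31 and 0.10 TPM in Re, under the filter of a mean of 1 TPM, so it was the 1 member of 10 left out of the fit. Dbt, the acyltransferase core of the complex, was at 2.55, 2.77 and 3.19 TPM in DMSO and at 3.06, 2.38 and 3.78 TPM in Re. The Dbt values overlapped, with a difference of 0.08 as deposited and -0.012 after rescaling. The ratio of Bckdha to Dbt was 2.85 ± 0.484 in DMSO and 2.50 ± 0.413 in Re (SD, n = 3). In the pair Bckdha was 1.92 times Bckdhb in the DMSO library and 0.96 times in the GBC library, while in the Re table the alpha subunit was at 6.52 TPM or more in each library beside a beta subunit at or near 0.

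Of the leucine branch, Ivd and Mccc1 overlapped between the groups. Ivd, which oxidises isovaleryl-CoA, was at 13.14, 14.24 and 12.48 TPM in DMSO and at 12.45, 11.15 and 17.54 TPM in Re. Re replicate 3 lay above the DMSO range and the other 2 Re libraries below it. The difference of Ivd was 0.02 as deposited, -0.09 after rescaling and -0.16 as deposited without Re replicate 3. Mccc1, the biotin-carrying alpha subunit of methylcrotonyl-CoA carboxylase, was at 5.29, 5.69 and 4.67 TPM in DMSO and at 6.61, 4.58 and 5.58 TPM in Re, a difference of 0.08, or -0.02 after rescaling. Its partner Mccc2 was at 6.26, 8.16 and 6.98 TPM in DMSO and at 8.29, 8.93 and 9.10 TPM in Re. The 3 Re values of Mccc2 lay above the 3 DMSO values as deposited, with a difference of 0.27 (interval -0.02 to 0.56). After rescaling the groups overlapped and the difference was 0.17 (interval -0.16 to 0.50). Within a library Mccc1 was 0.737 ± 0.0945 times Mccc2 in DMSO and 0.641 ± 0.144 times in Re (SD, n = 3). Mccc2 was thus the higher subunit in each of these 6 libraries, while in the pair only the alpha subunit was listed above 0.

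Acadsb, which oxidises the branched acyl-CoA made from isoleucine, stood at 16.5, 15.1 and 15.9 TPM in DMSO and at 26.6, 20.8 and 26.7 TPM in Re. The lowest Re library, replicate 2, was 20.8 TPM, above the highest DMSO library at 16.5 TPM. Means were 15.8 ± 0.746 TPM for DMSO against 24.7 ± 3.34 TPM for Re (SD, n = 3), a difference of 0.60 on the log2(TPM + 1) scale (interval 0.33 to 0.88). After rescaling the groups stayed apart, at 16.2 to 16.9 TPM in DMSO and 20.2 to 26.2 TPM in Re, with a difference of 0.49 (interval 0.25 to 0.74). Leaving out any 1 of the 6 libraries gave a difference between 0.55 and 0.72. A larger positive difference was found in 1.52% of the genes tested as deposited and in 1.68% after rescaling. Set against Ivd, a related dehydrogenase of the leucine branch, Acadsb was 1.20 ± 0.120 times as high in DMSO and 1.84 ± 0.308 times in Re (SD, n = 3). This ratio uses the Acadsb values given above and is no separate observation. It was 1.06 to 1.27 in the DMSO libraries and 1.52 to 2.13 in the Re libraries, with no overlap. In the pair it was 0.545 in both libraries. The gene Fgfr2 overlaps Acadsb on the opposite strand in GENCODE M21, and whether the counting used strand is not given in the sources used here. Fgfr2 was at 1.78 ± 0.612 TPM for DMSO against 1.82 ± 0.474 TPM for Re (SD, n = 3), and in the pair it was at 4.50 TPM with DMSO against 7.43 TPM with GBC. Gm44982, a gene model that overlaps Acadsb on the same strand, was listed at 0 in all 3 libraries with DMSO, against 0.25 ± 0.219 TPM for Re (SD, n = 3).

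**Figure D2:**
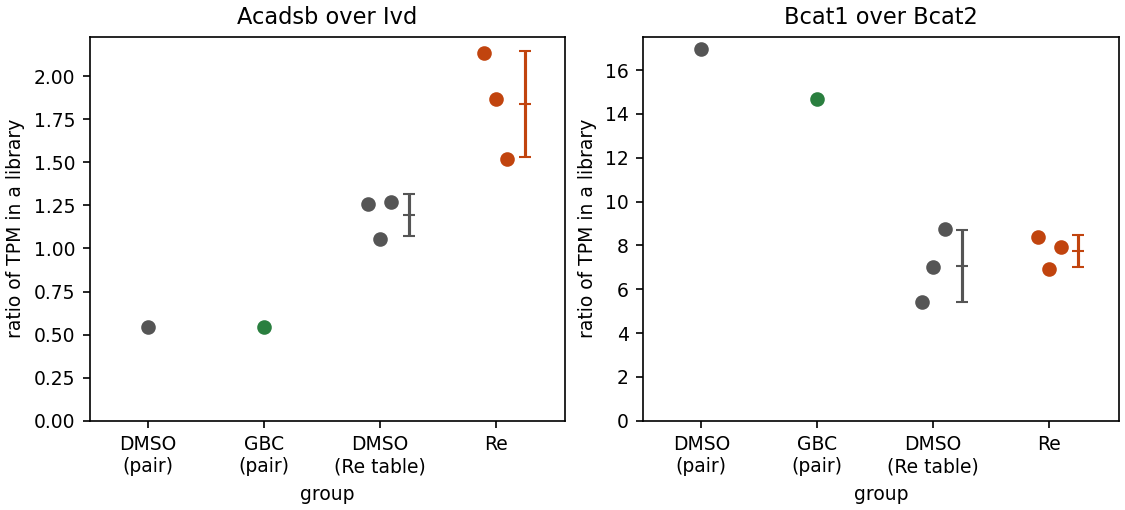
Ratio of the TPM of Acadsb to Ivd (left) and of Bcat1 to Bcat2 (right) in each of the 8 libraries by group, with the mean and SD beside the groups of 3. For Acadsb over Ivd the Re libraries lie at 1.52 to 2.13, above the DMSO libraries of their table at 1.06 to 1.27, and both libraries of the pair lie at 0.545.

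Hibch, the hydrolase of the valine branch, was at 9.36, 13.0 and 11.6 TPM in DMSO and at 11.8, 12.2 and 13.3 TPM in Re. These values overlapped, with a difference of 0.13 as deposited and 0.03 after rescaling. Of the 9 members tested, 8 were higher in Re as deposited, at a median difference of 0.08, beside 77.5% higher and a median of 0.105 over all genes tested. After rescaling 4 of 9 were higher, at a median of -0.012, beside 49.8% of all genes. None of the 9 passed an adjusted p of 0.05 in limma, a linear model fitted over all genes, where the share called was 0% of 11967 genes, with 745 at an unadjusted p under 0.05. Without the trend limma called 0 (732 unadjusted), and with robust variances 0 (728 unadjusted). Leaving out 1 library gave 0 to 7 calls, the most without Re replicate 3, and none of them was a member. Groups that did not overlap, with Re above DMSO, were seen in 3 members (Bcat1, Mccc2 and Acadsb) as deposited, beside 13.7% of all genes tested, and in 1, Acadsb, after rescaling, beside 5.24%. The members were chosen with this contrast known, so these counts are given as a description.

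**Figure D3:**
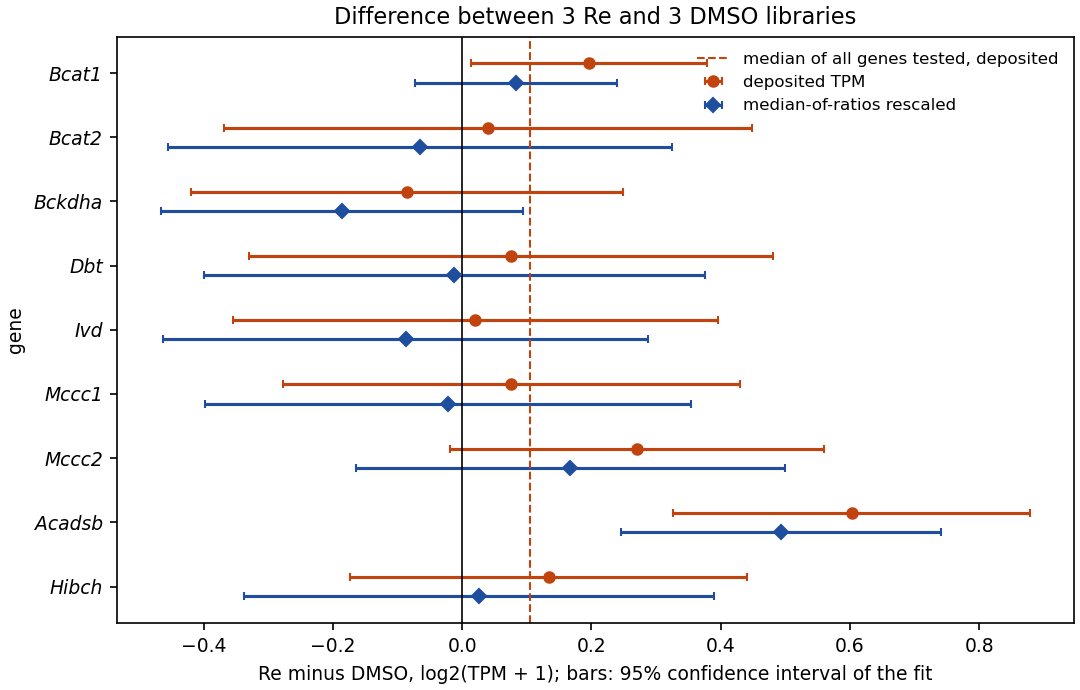
Difference between 3 Re and 3 DMSO libraries on the log2(TPM + 1) scale for the 9 tested members, as deposited (circles) and after median-of-ratios rescaling (diamonds). Bars are 95% confidence intervals of each gene from the fit over all genes, not adjusted for the number of genes. The interval of Acadsb runs from 0.33 to 0.88 as deposited and from 0.25 to 0.74 after rescaling, and the dashed line marks the median of all genes, 0.105.

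Profiles over the 6 libraries were compared with that of Acadsb by the root mean square distance of centred, rescaled log2(TPM + 1) values among 8731 named genes averaging 5 TPM or more. The nearest were Creld1, Ctla2a, Mief2, Polr3f and Mif4gd, at distances of 0.093, 0.096, 0.101, 0.104 and 0.109 log2 units, and their rescaled differences between Re and DMSO were 0.34 to 0.39. These genes were chosen for nearness over the same libraries, so differences of the same sign as that of Acadsb follow from the choice. With 6 libraries, such nearness is a description of these libraries alone. Among members, the nearest pair of profiles was Mccc2 and Hibch, at a distance of 0.086, and the farthest was Bcat2 and Acadsb, at 0.374.

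In the GBC pair, which has 1 library per group and so no replicate check, 8 of the 9 members averaging 1 TPM or more were higher in GBC as deposited. Bcat1 was at 31.2 TPM with DMSO against 40.1 TPM with GBC, a difference of 0.35, and Acadsb at 4.15 and 5.56 TPM, a difference of 0.35. These lie near the median of all genes in the pair, which was 0.32 over 10989 genes averaging 1 TPM or more. After rescaling the difference was -0.02 for Bcat1 and 0.03 for Acadsb. Bckdhb had the largest difference of the members, 0.76 from 3.26 to 6.20 TPM, and 0.44 after rescaling. Bckdha, its partner subunit, was at 6.26 and 5.95 TPM, the one member lower in GBC, with a difference of -0.06, and -0.40 after rescaling. Ivd was at 7.62 and 10.2 TPM, Hibch at 5.08 and 6.23 TPM, Mccc1 at 2.41 and 3.64 TPM, Bcat2 at 1.84 and 2.73 TPM, and Dbt at 0.93 and 1.34 TPM. Their differences as deposited were 0.38, 0.25, 0.44, 0.39 and 0.28, and after rescaling they were 0.03, -0.08, 0.15, 0.12 and 0.07. Mccc2 was listed at 0 in both libraries, and no fold can be given.

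None of the 9 members reached a difference of 1 in the pair, beside 4.75% of the genes averaging 1 TPM or more. The same holds for the 4 members with a mean of at least 5 TPM (Bcat1, Ivd, Bckdha and Hibch), beside 5.21% of 6639 genes. As a measure of spread, the largest gap between any 2 libraries of 1 group in the Re table was 0.11 for Bcat1, 0.34 for Acadsb and 0.69 for Bcat2 on the same scale. The deposited difference of Bcat1 in the pair, 0.35, was larger than its gap, and its rescaled difference of -0.02 was smaller. These gaps are on the deposited scale and come from other libraries, mostly at higher levels, such as 20.3 TPM for Acadsb against 4.86 TPM in the pair. They are therefore only a rough guide to the spread in the pair. For Bckdhb the gap of 0.41 comes from levels near 0 and is not a measure of the spread at the level it had in the pair. Over the 9 members the median difference was 0.35 as deposited and 0.03 after rescaling, beside 0.32 and 0.00 over all genes.

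**Figure D4:**
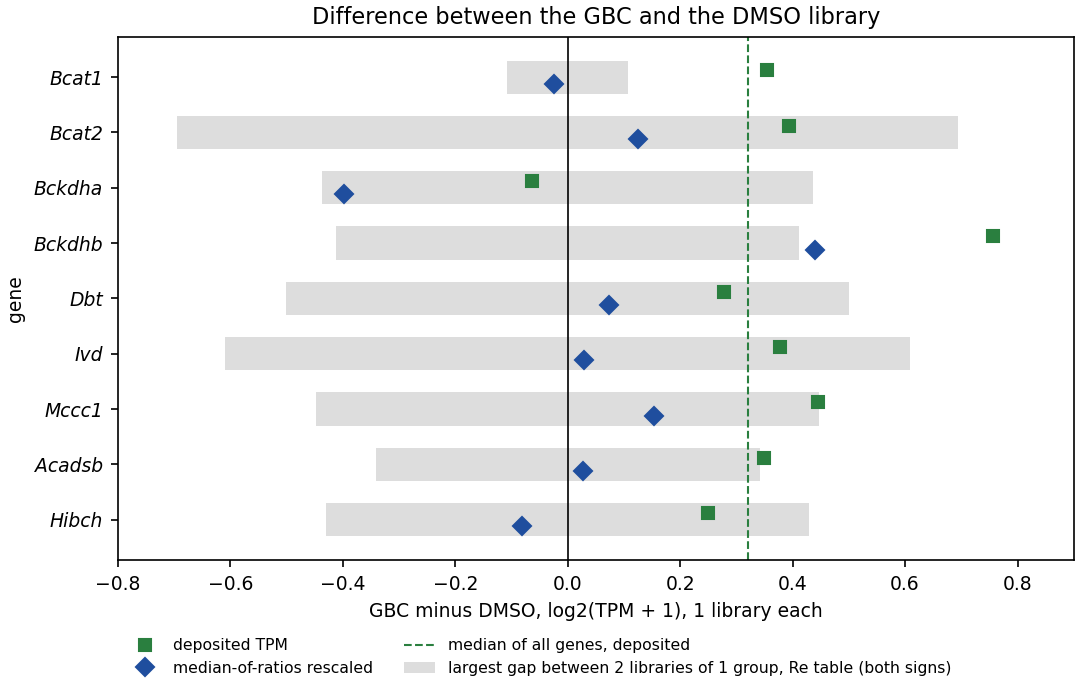
Difference between the GBC and the DMSO library of the pair on the log2(TPM + 1) scale for the 9 members averaging 1 TPM or more, as deposited (squares) and after rescaling (diamonds), over grey bars for the largest gap between 2 libraries of 1 group in the Re table. Most squares lie near the dashed median of all genes, 0.32, Bckdhb is the farthest to the right at 0.76, and Bckdha is the only square below 0. The bars are on the deposited scale and come from other libraries at other levels.

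The split between the tables in Mccc2 and Bckdhb was set beside all genes. Of the 8 members averaging 5 TPM or more in the Re table, 1, Mccc2, was listed at 0 in both libraries of the pair, beside 1.12% of 9257 genes. Of the 7 members averaging 3 TPM or more in the pair, 1, Bckdhb, was under 0.5 TPM in all 6 libraries of the Re table, beside 1.48% of 8334 genes. Both genes were singled out after their values were seen, and the cut-offs of the 2 counts differ. Bckdhb averaged 4.73 TPM in the pair, under the 5 TPM used for Mccc2, and was not at 0 in every library of the Re table. These counts are therefore a description and no measure of how rare such a split is. No gene overlapping Mccc2 was found in GENCODE M21, and of the 3 that overlap Bckdhb on the opposite strand, the 2 that are listed in the tables were at 0.15 TPM or less in both libraries of the pair and at 0 in the Re table. All the myoblast markers but Pax7, which was near 0 in both tables, differ in the same direction as Mccc2. The list summed to 1.98 TPM or less in the pair and to 201.6 TPM or more in the Re table. Des was the largest part of both sums, at 1.92 and 1.59 TPM in the pair and a mean of 119.8 TPM in the Re table. Of the mesenchymal markers, Thy1 differs in the same way as Bckdhb, while Pdgfrb is lower in the pair. Pdgfra was at 5.85 and 9.84 TPM in the pair and 1.85 to 3.07 TPM in the Re table. Col1a1 and Col1a2 were at 10.94 TPM or more in every library. The part of these markers in the split was not tested.

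Beyond the members, 36 other genes of the pathway were followed, and 33 averaged 1 TPM or more in the Re table. With Re, 0 of the 33 passed an adjusted p of 0.05 in limma in either direction. As deposited 25 were higher and 8 lower at a median of 0.09, and after rescaling 17 were higher at a median of 0.0079. Values of genes named below are differences on the log2(TPM + 1) scale as deposited unless a level is given.

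Next to the complex stand its shared subunit, its switches and its supply. Dld, the lipoamide dehydrogenase that also serves other complexes, was at 41.7 ± 1.65 TPM for DMSO against 44.5 ± 1.89 TPM for Re (SD, n = 3), a difference of 0.09. Bckdk, the kinase that switches the complex off, stood at 25.9 ± 2.79 TPM for DMSO against 23.4 ± 2.62 TPM for Re, a difference of -0.14. In each of the 6 libraries its level was higher than that of Bckdha, by 2.68 to 4.14 times. Ppm1k, the phosphatase that switches it on, was at 1.67, 1.41 and 1.22 TPM in DMSO and at 1.68, 1.84 and 6.01 TPM in Re. The groups did not overlap, though their nearest libraries were 1.67 and 1.68 TPM. The high value is that of Re replicate 3 alone, and the difference of 0.63 became 0.19 without it. Slc25a44, the mitochondrial carrier of branched-chain amino acids, stood at 11.04 ± 1.51 TPM for DMSO against 12.09 ± 0.308 TPM for Re, a difference of 0.13.

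Later steps of each branch differed in both directions, and none passed the threshold. Auh, a hydratase of the leucine branch, differed by -0.04. Of the isoleucine and valine steps, Echs1, Acat1, Acad8, Hibadh and Aldh6a1 differed by 0.15, 0.07, 0.15, 0.05 and 0.07. Hsd17b10, a dehydrogenase of isoleucine breakdown, was at 51.9 ± 5.49 TPM for DMSO against 48.4 ± 2.75 TPM for Re (SD, n = 3), a difference of -0.10. Its groups overlapped as deposited, while after rescaling the Re values lay below those of DMSO, at a difference of -0.21. Of the genes that take propionyl-CoA to succinyl-CoA, Pcca, the alpha subunit of propionyl-CoA carboxylase, was at 7.33, 4.27 and 6.95 TPM in DMSO and at 6.86, 10.03 and 11.51 TPM in Re. The Pcca values overlapped, with a difference of 0.55 (interval 0.02 to 1.08), and of 0.45 after rescaling (interval -0.03 to 0.92). Pccb, its beta subunit, differed by 0.05, Mcee by -0.02 and Mmut, the cobalamin-dependent mutase, by 0.22, with its groups apart on both scales.

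Among cofactor genes, Mmaa, which protects the mutase and its cobalamin, was at 2.29, 2.16 and 2.72 TPM in DMSO and at 4.23, 3.19 and 3.51 TPM in Re. Its Re values lay above its DMSO values on both scales, with a difference of 0.45 as deposited and 0.37 after rescaling. Mmab, which makes the active form of cobalamin, was at 5.55, 5.95 and 5.27 TPM in DMSO and at 4.47, 4.21 and 4.84 TPM in Re. Its Re values lay below its DMSO values on both scales, at differences of -0.26 and -0.36. Etfa, a subunit of the flavoprotein that takes electrons from Ivd and Acadsb, was at 40.6 ± 2.79 TPM for DMSO against 36.2 ± 1.43 TPM for Re (SD, n = 3), a difference of -0.16. Etfb, its partner, and Etfdh, the next carrier, differed by 0.08 and 0.09. Btd, which recycles biotin, and Hlcs, which attaches it to carboxylases, differed by 0.31 and 0.25. For Btd and Lias the Re values lay above those of DMSO as deposited and overlapped them after rescaling. Lias, Lipt1 and Lipt2, which make and attach the lipoyl group, differed by 0.23, 0.12 and -0.09.

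Of the 8 other acyl-CoA dehydrogenases, the enzyme family of Ivd and Acadsb, 7 were tested and 0 passed the threshold. As deposited 6 of the 7 were higher in Re, beside 77.5% of all genes, and after rescaling 5 were, beside 49.8%. Acads, Acadvl, Gcdh, Acad11, Acadm and Acad9 differed by 0.27, 0.27, 0.31, 0.21, 0.12 and 0.09, and Acadl by -0.26. In each of these 7 the DMSO and Re values overlapped on both scales, as they did in most of the 11967 genes tested, of which 1639 lay above and 152 below DMSO as deposited, and 627 and 593 after rescaling. No test of the difference between Acadsb and these genes was made. Of the regulators, Klf15, a transcription factor linked to this pathway in muscle, was listed at 0 in all 6 libraries and Ppargc1a was at 0.64 TPM or less. Myc was at 37.6 ± 2.33 TPM for DMSO against 38.4 ± 8.58 TPM for Re (SD, n = 3), a difference of 0.01.

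In the pair 22 of these 36 genes had a mean of at least 5 TPM, and 2 of them reached a difference of 1, against the 5.21% of all genes given above. As deposited 20 of the 22 were higher in GBC, at a median of 0.28, and after rescaling 8 were, at a median of -0.08. Those named below were picked after their values were seen. Dld was at 5.98 TPM with DMSO against 17.0 TPM with GBC, a difference of 1.37 as deposited and 1.02 after rescaling. Etfb went from 8.48 to 21.1 TPM, a difference of 1.22 as deposited and 0.86 after rescaling. Etfa was at 6.57 and 12.4 TPM and Mmut at 5.36 and 9.59 TPM, differences of 0.83 and 0.74, or 0.48 and 0.39 after rescaling. Kinase and carrier lay near the median of all genes, with Bckdk at 14.1 and 17.4 TPM and Slc25a44 at 4.73 and 6.11 TPM, differences of 0.29 and 0.31. The fatty acid dehydrogenases Acadvl and Acad9 were at 30.1 and 12.6 TPM in DMSO and at 30.3 and 12.3 TPM in GBC. These differences were 0.01 and -0.03 as deposited and -0.37 and -0.39 after rescaling. Acads, Acadm and Acadl differed by 0.20, 0.27 and 0.04 as deposited and by -0.16, -0.10 and -0.29 after rescaling. The pair has no replicates, so none of these differences has an error.

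**Figure D5:**
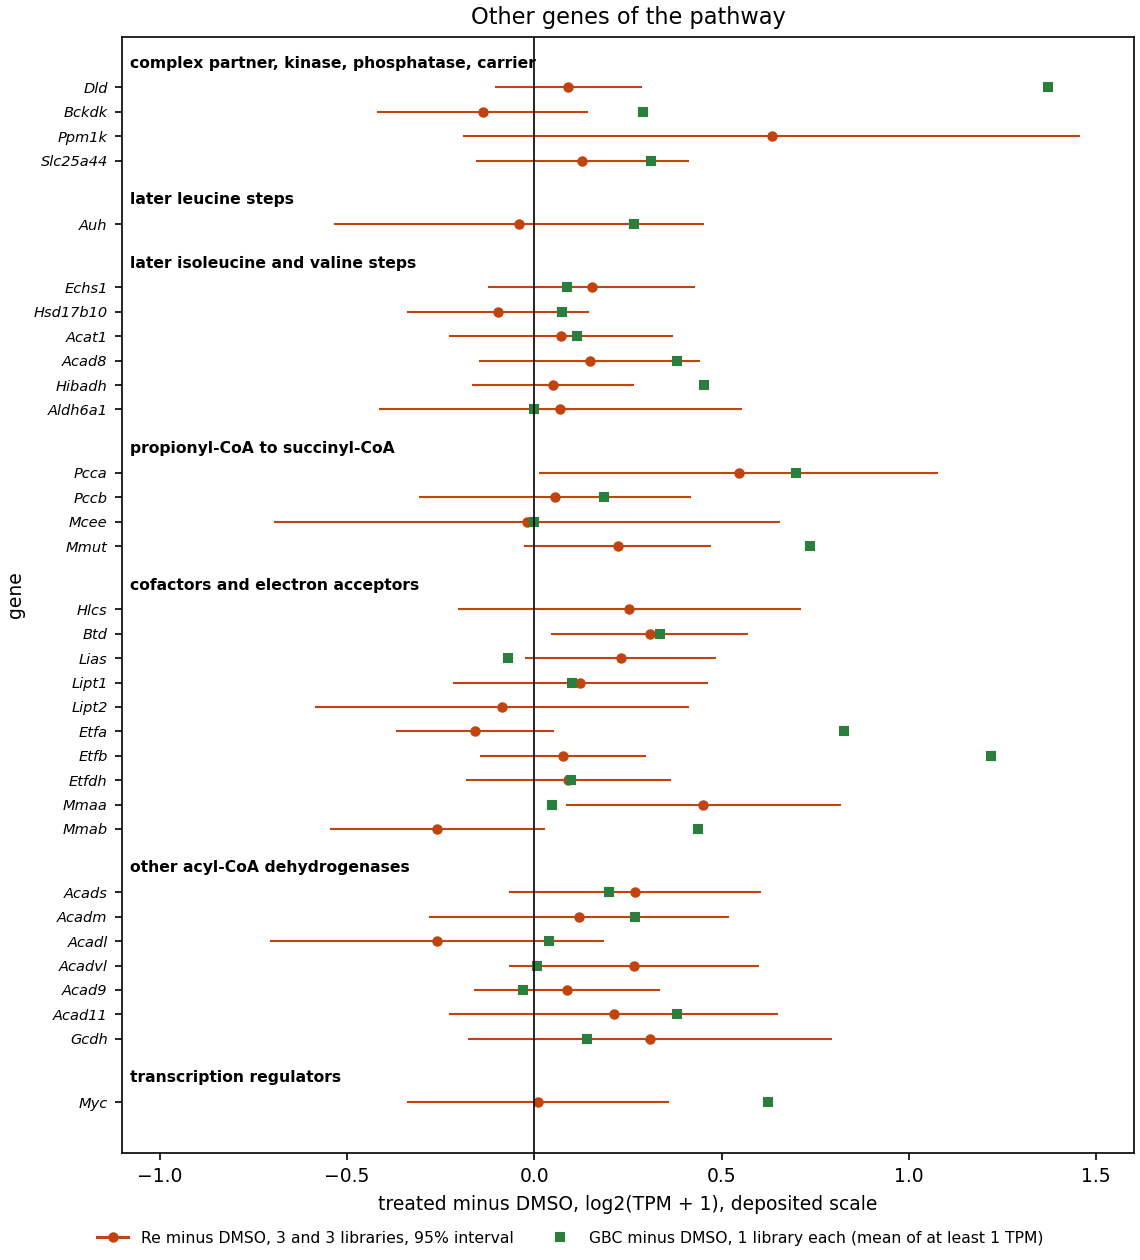
Treated minus DMSO on the log2(TPM + 1) scale, as deposited, for the 33 other pathway genes averaging 1 TPM or more in the Re table, grouped by role. Circles with lines give Re with its 95% confidence interval and squares the GBC pair where the mean was at least 1 TPM, and the squares of Dld at 1.37 and Etfb at 1.22 lie farthest to the right.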

How the data were processed

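RNA was sequenced from 8 libraries labelled C2C12. The authors deposited log2(TPM + 1) values per Ensembl gene, 1 column per library. Per the submitters' processing notes STAR and RSEM were used, with GRCh38 and GRCm39 named as builds; their settings are not recorded in the labels. Values were turned back to TPM, where they were multiples of 0.01 within 2.0e-04. Library depth is unknown, because TPM does not retain it, and no count model was used. The listed TPM summed to 403442 and 479938 in the pair and to between 642180 and 743269 in the Re table.

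Re and DMSO were compared across genes averaging 1 TPM or more by limma 3.58.1 in R 4.3.3 (moderated, with trend, two-sided) on log2(TPM + 1), a pseudocount of 1 that understates changes of low genes, with Benjamini-Hochberg adjustment at 0.05. The step was tested on simulated data with changes larger than any difference seen in the members. That test does not tell whether differences of the members' size would be called. For median-of-ratios rescaling, each library was divided by its median ratio to the geometric mean over genes above 0 in every library of its table averaging 1 TPM or more. The pair had no test, and a difference of 1 was the size counted. Tables were drawn up with Python 3.11.15, pandas 2.3.3 and matplotlib 3.10.9. GENCODE M21 and RefSeq sequences are on GRCm38. For Re, named genes were all members and every listed pathway gene averaging 1 TPM or more. Within the lists these were not picked for how they moved. The 5 genes most like Acadsb were added. Genes under that mean, Mccc2 and Bckdhb as a split, Fgfr2 and Gm44982 were named after their values were seen. So were the markers named singly, such as Thy1, and the wider pathway genes named in the pair. Members and lists were chosen with earlier results of these data known. A further listed gene is not reported here. Alternatives were other pseudocounts, scalings, filters and limma settings, a block for replicate number, and fits without each library in turn.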

Additional observations from a re-analysis of the deposited data

Results flagged for a closer look

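Etfa and Mmab of the wider pathway were flagged because GBC and Re differed from DMSO in opposite directions as deposited. In both genes the Re values lay apart from those of DMSO on the deposited and the rescaled scale. Etfa, a subunit of the electron-transferring flavoprotein, differed by 0.83 in the GBC pair and by -0.16 between Re and DMSO, where Re lay below DMSO in every library; after rescaling these were 0.48 and -0.27. Mmab, of cobalamin metabolism, differed by 0.44 in the GBC pair and by -0.26 between Re and DMSO, again with no overlap. After rescaling the difference of Mmab was 0.09 in the pair and -0.36 between Re and DMSO, and the median of all genes in the pair was 0.32 as deposited. Lias, of lipoyl synthesis, was also opposite in sign, at 0.23 with Re and -0.07 with GBC as deposited and at 0.12 and -0.42 after rescaling, but its Re and DMSO values overlapped on the rescaled scale. Mmaa, with Re also apart from DMSO on both scales, was opposite in sign only after rescaling. Its differences were 0.45 with Re and 0.05 with GBC as deposited, and 0.37 and -0.22 after rescaling. Opposite signs as deposited were also seen in Bckdk, Auh, Hsd17b10, Acadl, Acad9 and Lipt2, whose Re and DMSO values overlapped on that scale. Over all genes tested, 2689 of 11967 were lower in Re as deposited. In the pair 9755 of 10989 genes averaging 1 TPM or more were higher in GBC. The share of all genes opposite in sign was not counted, so Etfa and Mmab are not shown to be unusual. The difference between the treatments was not tested, and the pair has 1 library per group. Agent and table differ together, so the 2 cannot be told apart. Groups of 3 were not searched for outlying libraries.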

How the results depend on the processing

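For Re, the median difference of the 9 tested members moved from 0.08 to -0.012 after median-of-ratios rescaling, -0.016 after quantile normalization and 0.0054 without mitochondrially encoded genes, and it ran from 0.071 to 0.19 when 1 library was left out. It was 0.14 without DMSO replicate 3 and 0.19 without Re replicate 2. Over all genes 0 were called by limma in each setting that kept all 6 libraries. Leaving out 1 library gave 0 to 7 calls. They numbered 4, 6 and 0 on dropping DMSO replicates 1, 2 and 3, and 3, 1 and 7 on dropping Re replicates 1, 2 and 3. None of these calls was a member. Of 108 recomputed values of single members 18 changed sign and 3 moved by more than the spread between replicates; Acadsb, Bcat1, Mccc2 and Hibch kept their sign in every setting run.

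In the pair the median of the 9 members moved from 0.35 to 0.028 after rescaling, -0.017 after quantile normalization and 0.20 without mitochondrially encoded genes. The count of genes past the size of 1 moved from 346 to 129 after rescaling, 128 after quantile normalization and 522 averaging 1 TPM or more, and the share of them that was higher from 95.4% to 78.3% after rescaling and 79.7% after quantile normalization. Of 45 values of single members 6 changed sign and 23 moved.

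Titles give both groups the numbers 1 to 3, while the column headers number the Re libraries onward from the DMSO libraries. No label says that a number marks a shared culture. Deviations of libraries with the same number in their titles correlated at 0.163, 0.077 and 0.017 across genes. With the replicate block the number of calls was 0 and the median of the members 0.08, with 810 genes in place of 745 at an unadjusted p under 0.05; not every library correlated best with its own number. TPM without depth limits what can be said of genes near 0, such as Bckdhb.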
